A study of Mus musculus with 14 samples.

Results

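The genes described here are 32 genes of the hemidesmosome, the integrins, the laminins and the other non-collagen parts of the basement membrane. They were chosen by a list of gene symbols, with no threshold on a measured value but with earlier results of these data known, and make up 32 of the 56691 gene IDs in the count table. All 32 were found, and all 32 passed the filter on low counts, which kept 21619 genes. By role they were 5 genes of the hemidesmosome core, 7 other integrin chains, 2 kindlins, 9 laminin chains, 5 nidogen, proteoglycan and dystroglycan genes, and 4 genes of the Fraser complex.

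RNA of whole mouse paws was depleted of ribosomal RNA and sequenced at birth (postnatal day 0, P0) and 3 days later (P3). Krt9 encodes a keratin of palm and sole epidermis. The groups were wild-type (WT) paws on P0 (n = 4), paws labelled Krt9-/- on P0 (n = 2), WT paws on P3 (n = 5) and paws labelled Krt9-/- on P3 (n = 3), with both sexes in every group. The second genotype is called Krt9 null below; the labels do not tell how the allele was made, the strain, or whether a library held paws of 1 mouse. By the labels, 2 pairs of libraries share day, litter and sex: the litter 1 males of P0 (WT replicate 1 and Krt9 null replicate 1) and the litter 2 males of P3 (WT replicates 2 and 3). The p-values measure the spread between these libraries.

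Hemidesmosomes rivet the basal keratinocyte to the basement membrane: the α6β4 integrin binds laminin outside the cell, and the plakins plectin and dystonin tie it to keratin filaments inside. The basement membrane is a sheet of laminins and type IV collagen joined by nidogens and heparan sulfate proteoglycans, and other integrins use it, or fibronectin beyond it, as a foothold coupled to actin. The Fraser complex proteins lie beneath it and hold developing epidermis to the dermis.

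Total counts per library ran from 28947715 to 41004173. Krt9 was at 2.09 to 7.61 CPM (read counts scaled to library size after TMM normalisation) in P0 WT paws and at 5.32 and 6.08 CPM in the P0 libraries labelled Krt9 null, so it does not separate the P0 labels. On P3 it was at 32.9 to 83.0 CPM in WT and at 7.74 to 25.2 CPM in the libraries labelled Krt9 null. Krt19, another keratin, was at 0.865 to 1.95 CPM in all 9 WT libraries and at 48.9 to 209 CPM in all 5 labelled Krt9 null. In 13 of 14 libraries Xist and Ddx3y (on either side of 10 CPM) matched the labelled sex. P0 WT replicate 4, labelled female, had 0.181 CPM of Xist and 0.155 CPM of Ddx3y, and results are given without it where it matters.

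The columns of the table stand in 2 alphabetical runs, called run A (8 libraries) and run B (6 libraries) here, and nothing in the labels says what the runs stand for. Run B holds P0 WT replicate 4, P0 Krt9 null replicate 2, P3 WT replicates 1 and 5, and P3 Krt9 null replicates 1 and 3, so each group has libraries in both runs. Each P0 group has 1 library in run B, so a fit to run B alone, with 1 residual degree of freedom, rests on single P0 libraries and is given as a description only. With run added as a term, 21 of the 32 members were lower in run B by edgeR's quasi-likelihood test (Benjamini-Hochberg adjusted p under 0.05), where 13.5% of all genes tested were lower. No member was called higher in run B, where 9.68% of all genes were. The median run difference was -0.46 (log2) over the members and 0.02 over all genes.

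Run B differences were widest for Hspg2, which encodes perlecan, a heparan sulfate proteoglycan (log2 difference -1.23 ± 0.09, SE), and for Plec, which encodes plectin (-1.19 ± 0.08). Their longest transcripts have the highest GC contents among the members, 60.9% and 61.3%. These transcripts are also long, at 14187 and 15455 bases. The median was 6068.5 bases over the members and 2821.5 over all genes tested with a transcript. Dst has the longest of the members, at 23279 bases, and its run difference was -0.40. Of the 16 members above the median transcript GC of 52.3%, 13 were called lower in run B, and of the 16 below it, 8 were. Cd151, Frem1, Fermt1, Itgb1 and Itgb6 differed between the runs by 0.01 to 0.12 (log2), and none of them was called. The split by GC content was not made over all genes. The parts of GC content and transcript length in the run difference were not tested.

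**Figure D1:**
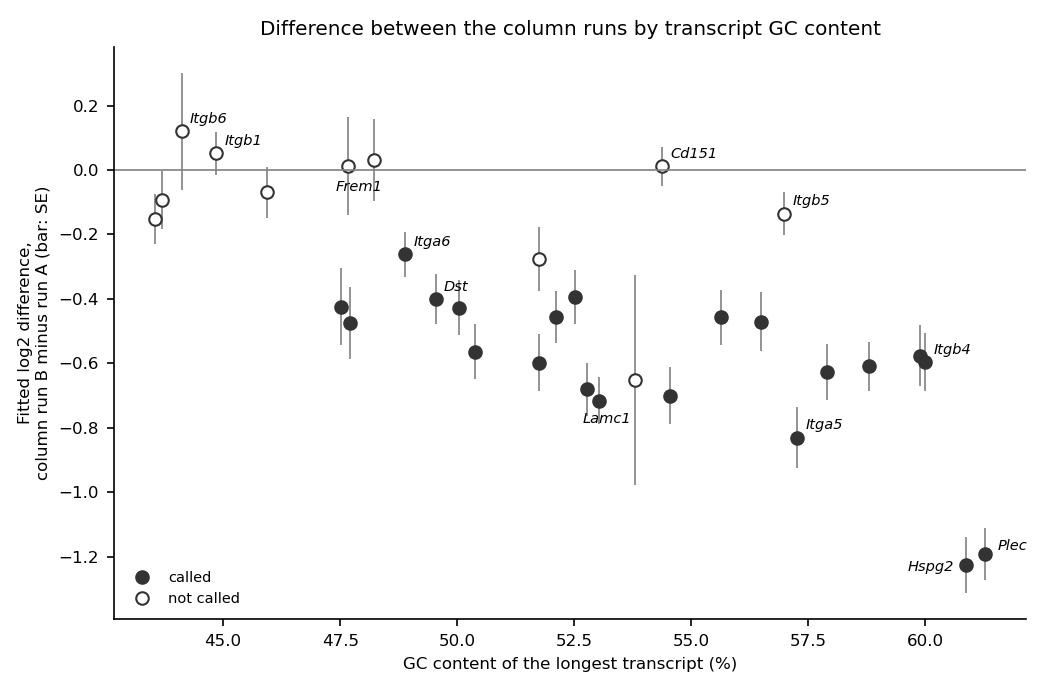
Fitted log2 difference between the column runs (run B minus run A, y axis, bars are SE) against the GC content in percent of the longest transcript (x axis) for the 32 members. Filled points are called at an adjusted p under 0.05; Plec and Hspg2 lie lowest, at -1.19 and -1.23, and 21 points are called below 0.

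Levels between genes are compared as CPM per kilobase of exon, for which P0 WT means ran from 0.294 for Lama1 to 199.9 for Itgb1, with a median of 18.1. Itgb1 encodes β1, the chain that most integrins share, and it was the most abundant member in all 4 groups. Next in P0 WT came the nidogen gene Nid1 (89.9 ± 14.9 CPM per kb, SD, n = 4), Hspg2 (72.0 ± 22.9) and the laminin γ1 gene Lamc1 (66.1), whose ranges over libraries overlapped. Lama1, which encodes the laminin α1 chain of early embryonic basement membranes, Itgb6 (0.981 ± 0.213) and Grip1 (1.19 ± 0.20) were the lowest. In P3 WT paws the median over members was 14.1 CPM per kb.

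**Figure D2:**
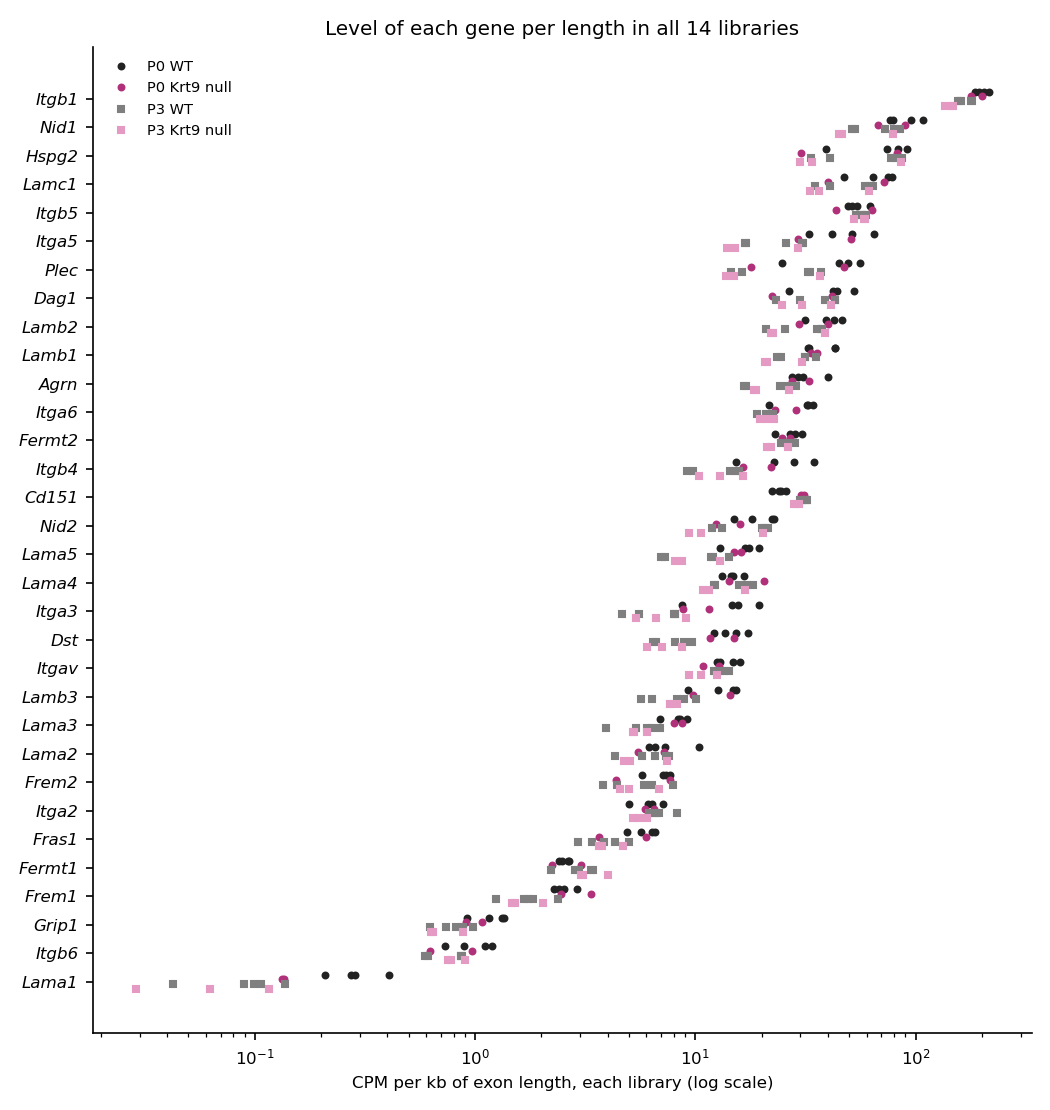
CPM per kilobase of exon length on a log scale (x axis) for each member (y axis, ordered by P0 WT mean) in each of the 14 libraries, coloured by group. Itgb1 is highest, near 199.9 in P0 WT, and Lama1 lowest, with all P3 libraries below all P0 WT libraries.

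Between P0 and P3, WT paws showed lower RNA levels of the hemidesmosome genes Itga6, Itgb4 and Dst, while Plec was not called. Lama3 and Lamb3, genes of the laminin that α6β4 binds, were lower too. Of the 32 members, 11 changed by edgeR's quasi-likelihood test (Benjamini-Hochberg adjusted p under 0.05), where 16.6% of all genes tested did. The members that fell were 10 (8.07% of all genes fell), and the tetraspanin gene Cd151 alone rose (8.49% of all genes rose). The median change was -0.37 (log2) over the 32 members and -0.01 over all genes, and 27 of 32 members were below 0, as were 50.9% of all genes. At an unadjusted p under 0.05 there were 16 members, beside 30.7% of all genes. Libraries of both days did not overlap for 6 lower members (7.73% of all genes), Dst, Itga3, Itga5, Itgb1, Lama1 and Lama3, and for 1 higher member, Cd151 (8.96%). Leaving out P0 WT replicate 1, 2 or 3 or P3 WT replicate 5 lowered the count to 6, 6, 5 and 7 members, while the share of all genes called was 8.32%, 9.12%, 7.49% and 11.1%. Leaving out P0 WT replicate 4 gave 12 members (19.4% of all genes). In bulk tissue, fewer cells of a type and less RNA per cell cannot be told apart.

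Epithelial markers moved in the same comparison: 3 of 15 fell and none rose, among them 1 of the 4 basal keratinocyte markers (Trp63). Their summed level was 6879 to 12580 CPM in P0 WT and 7101 to 9363 CPM in P3 WT, with no marker at 0. Skeletal muscle markers fell in 7 of 10 cases, from sums of 4594 to 13127 CPM to sums of 1888 to 3621 CPM. Proliferation markers rose in 6 of 9 cases, macrophage markers in 4 of 6 and Schwann cell markers in 2 of 7. Of 10 endothelial markers 1 fell, with a median of -0.33 (log2) and 9 below 0, and of 8 fibroblast markers 1 fell. In run A an epithelial marker score (mean log2 of CPM plus 1 over the 15 markers) was 8.20, 8.02 and 8.17 in P0 WT. It was 7.64, 7.62 and 7.42 in P3 WT of that run. In run B it was 7.44 in P0 WT replicate 4 and 7.94 and 7.93 in P3 WT, so its direction differed between the runs. With this score as a covariate, 15 members were called in this comparison (15.5% of all genes). With the column run as a term, 20 members were called (25.8% of all genes then were), 19 of them lower.

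**Figure D3:**
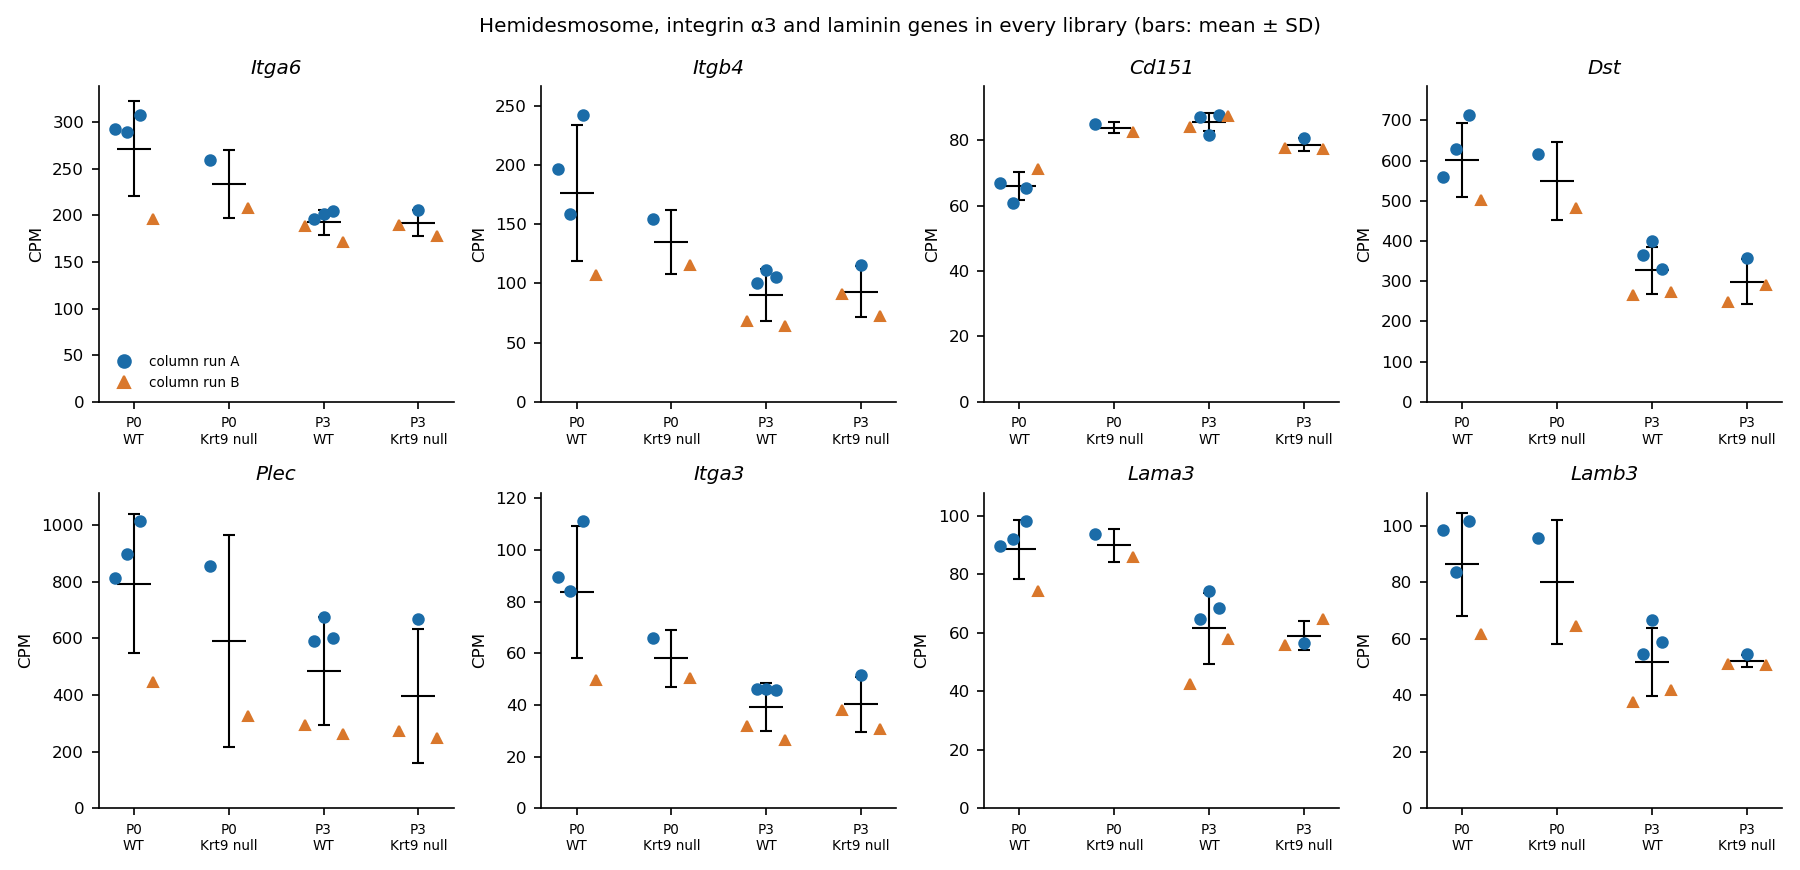
CPM (y axes, from 0) in every library by group (x axes) for the hemidesmosome genes, Itga3, Lama3 and Lamb3; blue circles are run A, orange triangles run B, and bars give mean ± SD. Dst separates P0 from P3 in both genotypes, while Plec splits by run within each group.

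In the hemidesmosome core, Dst encodes dystonin, whose epithelial form (BPAG1e, the bullous pemphigoid antigen) links integrin α6β4 to keratin. Its gene-level count sums the epithelial, neuronal and muscle forms, which start at different places. The RefSeq table of GRCm38.p6 gives windows of 300 bases around starts (250 before and 50 after), printed here for the genes with the smallest adjusted p in this comparison that have an entry, with GC boxes (GGGCGG, searched on both strands) in capitals. The first Dst window, chr1:34011345-34011644 on the plus strand, is 70.3% GC with 4 GC boxes, and the second, chr1:34160010-34160309 on the plus strand, is 46.0% GC with none.
Dst window 1: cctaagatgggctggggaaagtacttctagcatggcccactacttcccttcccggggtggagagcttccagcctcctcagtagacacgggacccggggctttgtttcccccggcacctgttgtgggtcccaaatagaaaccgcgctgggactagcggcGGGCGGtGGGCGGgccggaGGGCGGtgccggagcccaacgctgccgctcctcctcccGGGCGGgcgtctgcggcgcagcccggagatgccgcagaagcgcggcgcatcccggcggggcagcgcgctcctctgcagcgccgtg
Dst window 2: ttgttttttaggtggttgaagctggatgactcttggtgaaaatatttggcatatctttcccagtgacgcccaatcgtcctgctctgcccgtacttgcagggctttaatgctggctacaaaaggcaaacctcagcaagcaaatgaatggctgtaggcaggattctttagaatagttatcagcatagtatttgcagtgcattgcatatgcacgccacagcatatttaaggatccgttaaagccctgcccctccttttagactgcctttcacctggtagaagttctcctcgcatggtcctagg

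Dst was at 560, 629, 714 and 503 CPM in P0 WT replicates 1 to 4 and at 265, 365, 399, 331 and 272 CPM in P3 WT replicates 1 to 5. Paws labelled Krt9 null were at 617 and 481 CPM on P0 and at 248, 359 and 290 CPM on P3. Every P3 library lay below every P0 library, whatever the genotype. The fall in WT was 1.85-fold (log2 -0.89 ± 0.16, SE, adjusted p = 0.00284 by edgeR's quasi-likelihood test with Benjamini-Hochberg adjustment, as for each adjusted p below). In Krt9 null paws the fitted change was -0.85 ± 0.22 (adjusted p = 0.0841).

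The α6β4 integrin is the receptor of the hemidesmosome, and its β4 chain carries the long tail that binds plectin. Itgb4 was at 197, 159, 243 and 107 CPM in P0 WT and at 68.7, 101, 111, 106 and 64.2 CPM in P3 WT. The lowest P0 library, replicate 4 of run B, lay between the P3 libraries, so the groups overlapped by that library. Itgb4 fell 1.96-fold in WT (log2 -0.97 ± 0.21, adjusted p = 0.00917), and by -0.87 within run A. The run B value, -0.78, compares P0 WT replicate 4 alone with 2 P3 libraries. The Krt9 null libraries were at 154 and 116 CPM on P0 and at 91.1, 116 and 72.6 CPM on P3.

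Itga6, the α6 chain, was at 293, 290, 308 and 196 CPM in P0 WT and at 188, 196, 202, 204 and 171 CPM in P3 WT. P0 WT replicate 4 was far below the other P0 WT libraries and within the P3 range. Itga6 fell 1.42-fold (log2 -0.51 ± 0.12, adjusted p = 0.0145), and by -0.62 without P0 WT replicate 4. Within run A its change was -0.53, and in run B, where replicate 4 is the 1 P0 WT library, it was -0.17. Leaving out P0 WT replicate 1, 2 or 3 took the adjusted p to at most 0.0708. The Krt9 null libraries had 259 and 208 CPM on P0 and 190, 206 and 178 CPM on P3. The log2 ratio of Itga6 to Itgb4 CPM was 0.66 ± 0.25 (SD, n = 4) in P0 WT and 1.13 ± 0.28 (n = 5) in P3 WT, and the ranges overlapped.

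Plec was at 814, 897, 1013 and 447 CPM in P0 WT and at 295, 591, 675, 601 and 263 CPM in P3 WT. Krt9 null paws had 854 and 324 CPM on P0 and 272, 667 and 249 CPM on P3. In each group the run B libraries were the lowest, and the days overlapped. The WT change of Plec was -0.73 ± 0.42 (adjusted p = 0.265). With the column run as a term it was -0.58 ± 0.09 (adjusted p = 0.000538), and within run A it was -0.51 (adjusted p = 0.00175).

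CD151 is a tetraspanin that sits in hemidesmosomes beside α6β4 and also binds α3β1. Its first window, chr7:141467112-141467411 on the plus strand, is 64.3% GC with 2 GC boxes, and is shown because Cd151 was the member that rose.
Cd151 window 1: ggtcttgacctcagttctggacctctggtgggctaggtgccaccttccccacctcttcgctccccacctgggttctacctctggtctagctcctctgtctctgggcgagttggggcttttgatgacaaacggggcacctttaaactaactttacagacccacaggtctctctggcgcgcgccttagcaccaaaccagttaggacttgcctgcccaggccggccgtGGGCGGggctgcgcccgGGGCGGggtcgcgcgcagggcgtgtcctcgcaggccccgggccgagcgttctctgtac

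Cd151 was at 67.0, 60.8, 65.5 and 71.1 CPM in P0 WT and at 84.0, 87.1, 81.6, 87.8 and 87.5 CPM in P3 WT, with no overlap. It rose 1.30-fold (log2 0.37 ± 0.09, adjusted p = 0.00984). The Krt9 null libraries had 85.0 and 82.6 CPM on P0, above every P0 WT library, and 77.8, 80.8 and 77.2 CPM on P3, below every P3 WT library. Its fitted change with day in Krt9 null paws was -0.10 ± 0.11. The run difference of Cd151 was 0.01 ± 0.06 (log2).

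The epidermal laminin that anchors α6β4 contains the α3 and β3 chains. The first Lamb3 window, chr1:193301744-193302043 on the plus strand, is 59.3% GC with no GC box.
Lamb3 window 1: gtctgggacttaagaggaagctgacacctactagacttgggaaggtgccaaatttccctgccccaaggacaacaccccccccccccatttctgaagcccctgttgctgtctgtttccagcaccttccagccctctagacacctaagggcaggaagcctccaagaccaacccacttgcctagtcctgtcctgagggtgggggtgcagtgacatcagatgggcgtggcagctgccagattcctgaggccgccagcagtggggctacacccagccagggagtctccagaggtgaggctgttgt

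Lama3 was at 89.7, 91.9, 98.1 and 74.3 CPM in P0 WT and at 42.4, 64.7, 74.2, 68.4 and 58.0 CPM in P3 WT. The groups did not overlap, by 74.3 against 74.2 CPM. It fell 1.44-fold (log2 -0.53 ± 0.14, adjusted p = 0.0242), a call lost without P0 WT replicate 1, 2 or 3 or P3 WT replicate 5 (adjusted p up to 0.108). In Krt9 null paws Lama3 was at 93.9 and 85.9 CPM on P0 and at 55.9, 56.4 and 64.6 CPM on P3, a fitted change of -0.60 ± 0.20 (adjusted p = 0.160).

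Lamb3 was at 98.5, 83.8, 102 and 61.6 CPM in P0 WT and at 37.4, 54.5, 66.5, 58.9 and 41.9 CPM in P3 WT. P0 WT replicate 4 lay below P3 WT replicate 3, and the other P0 libraries lay above the P3 range. It fell 1.67-fold (log2 -0.74 ± 0.17, adjusted p = 0.0104). Paws labelled Krt9 null had 95.5 and 64.6 CPM on P0 and 51.0, 54.7 and 50.9 CPM on P3. Without P0 WT replicate 3, the WT call was lost (adjusted p = 0.0504). The log2 ratio of Lama3 to Lamb3 CPM was 0.06 ± 0.18 (SD, n = 4) in P0 WT and 0.25 ± 0.13 (n = 5) in P3 WT, with overlap.

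Of the other laminin chains, Lama1 and Lama5 fell in WT paws. Lama1 was at 2.77, 3.95, 2.64 and 2.02 CPM in P0 WT and at 0.413, 0.963, 1.33, 1.03 and 0.865 CPM in P3 WT. The days did not overlap, and the fall was 3.01-fold (log2 -1.59 ± 0.37, adjusted p = 0.0116) at a level that is the lowest of the members. Krt9 null paws had 1.32 and 1.28 CPM on P0 and 0.279, 0.604 and 1.12 CPM on P3.

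Lama5, the main α chain of many mature epithelial and vascular basement membranes, was at 148 to 222 CPM (median over 4 libraries 195) in P0 WT and at 79.9 to 162 CPM (median 134) in P3 WT. The ranges overlapped, and it fell 1.61-fold (log2 -0.69 ± 0.21, adjusted p = 0.0406). That call was lost when any of 8 libraries was left out: both P0 Krt9 null libraries, P0 WT replicates 1, 2 and 3, and P3 WT replicates 1, 2 and 5 (adjusted p up to 0.149). Lama2, Lama4, Lamb1, Lamb2 and Lamc1 had WT changes of -0.37 to 0.03 and none was called. With the column run as a term, Lamb1, Lamb2 and Lamc1 were called lower (-0.31, -0.28 and -0.26). In Krt9 null paws all 9 laminin chains had fitted changes below 0, from -1.07 for Lama1 to -0.15 for Lama2, and none was called.

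Among the integrin chains outside the hemidesmosome, Itga3, whose α3β1 integrin is the other main laminin receptor of keratinocytes, had the second smallest adjusted p of the members. Its first window, chr11:95076665-95076964 on the minus strand, is 66.7% GC with 3 GC boxes.
Itga3 window 1: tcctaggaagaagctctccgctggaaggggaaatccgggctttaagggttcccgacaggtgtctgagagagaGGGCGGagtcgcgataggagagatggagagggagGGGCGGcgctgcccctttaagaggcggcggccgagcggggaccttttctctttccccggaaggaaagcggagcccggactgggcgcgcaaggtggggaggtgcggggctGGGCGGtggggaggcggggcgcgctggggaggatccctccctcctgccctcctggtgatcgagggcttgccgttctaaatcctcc

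Itga3 was at 89.6, 84.1, 111 and 49.7 CPM in P0 WT and at 31.7, 46.3, 46.1, 45.6 and 26.6 CPM in P3 WT. Even the lowest P0 library lay above the P3 range. The fall was 2.14-fold (log2 -1.10 ± 0.22, adjusted p = 0.00566), and -1.01 within run A. In run B, with 1 P0 WT library, the value was -0.90. Of the Krt9 null libraries, Itga3 was at 66.0 and 50.3 CPM on P0 and at 38.0, 51.8 and 30.8 CPM on P3, with overlap.

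Itga5, the α chain of the fibronectin receptor, was at 205, 253, 321 and 161 CPM in P0 WT and at 84.2, 127, 151, 152 and 82.7 CPM in P3 WT. The days did not overlap, and the fall was 1.97-fold (log2 -0.98 ± 0.29, adjusted p = 0.0403). The call was lost without P0 WT replicate 1, 2 or 3 or P3 WT replicate 1, 2 or 5 (adjusted p up to 0.161) and with litter as a block. On P0 the Krt9 null libraries had 252 and 145 CPM, and on P3 they had 68.4, 144 and 75.1 CPM, a fitted change of -1.004 ± 0.41 (adjusted p = 0.254).

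Itgb1 was at 757, 882, 833 and 792 CPM in P0 WT and at 726, 635, 649, 655 and 734 CPM in P3 WT, without overlap. Its WT change of -0.25 ± 0.10 missed the threshold (adjusted p = 0.0928). On P0 the Krt9 null libraries had 731 and 821 CPM, and on P3 they had 558, 599 and 602 CPM. Itga2, Itgav, Itgb5 and Itgb6 had WT changes of 0.15, -0.12, 0.06 and -0.36, and none was called. The kindlins, which switch integrins on from the inside, were not called either: Fermt1, the epithelial kindlin, changed by 0.21 ± 0.15, and Fermt2, the widely expressed one, by -0.04 ± 0.11. The log2 ratio of Fermt1 to Fermt2 CPM was -3.27 ± 0.20 (SD, n = 4) in P0 WT and -3.03 ± 0.29 (n = 5) in P3 WT.

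None of the nidogen, proteoglycan and dystroglycan genes was called in WT. Agrn, the agrin gene, came nearest (log2 -0.51 ± 0.18, adjusted p = 0.0701), followed by Nid1 (-0.40 ± 0.21, adjusted p = 0.210). Both were called lower with the column run as a term, Agrn at -0.46 and Nid1 at -0.32. Hspg2 was at 1063, 1307, 1189 and 562 CPM in P0 WT and at 585, 1163, 1242, 1108 and 480 CPM in P3 WT, so its libraries split by run rather than by day. Its change was -0.20 ± 0.43, and -0.03 ± 0.10 with the run as a term. Nid2 and Dag1, the gene of the laminin receptor dystroglycan, had changes of -0.17 and -0.25.

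In the Fraser complex, Fras1 fell 1.51-fold in WT (log2 -0.59 ± 0.17, adjusted p = 0.0293), from 86.4 to 116 CPM on P0 to 52.2 to 88.4 CPM on P3, with overlap. Leaving out P0 WT replicate 1, 2 or 3 or P3 WT replicate 1, 2 or 5 ended this call (adjusted p up to 0.110), as did litter as a block. Frem1 was at 31.9, 33.5, 35.4 and 40.8 CPM in P0 WT and at 17.5, 25.7, 33.4, 23.4 and 24.4 CPM in P3 WT. Only P3 WT replicate 3 reached the P0 range, and the change was -0.49 ± 0.17 (adjusted p = 0.0618). With litter as a block it was -0.60 (adjusted p = 0.0303), and with the column run as a term it was -0.49 (adjusted p = 0.0455). In Krt9 null paws Frem1 was at 34.3 and 46.8 CPM on P0 and at 21.2, 20.6 and 28.4 CPM on P3, without overlap (log2 -0.81 ± 0.23, adjusted p = 0.112). Frem2 and Grip1, whose product carries Fras1 and Frem2 to the cell surface, had WT changes of -0.32 and -0.55 and were not called.

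**Figure D4:**
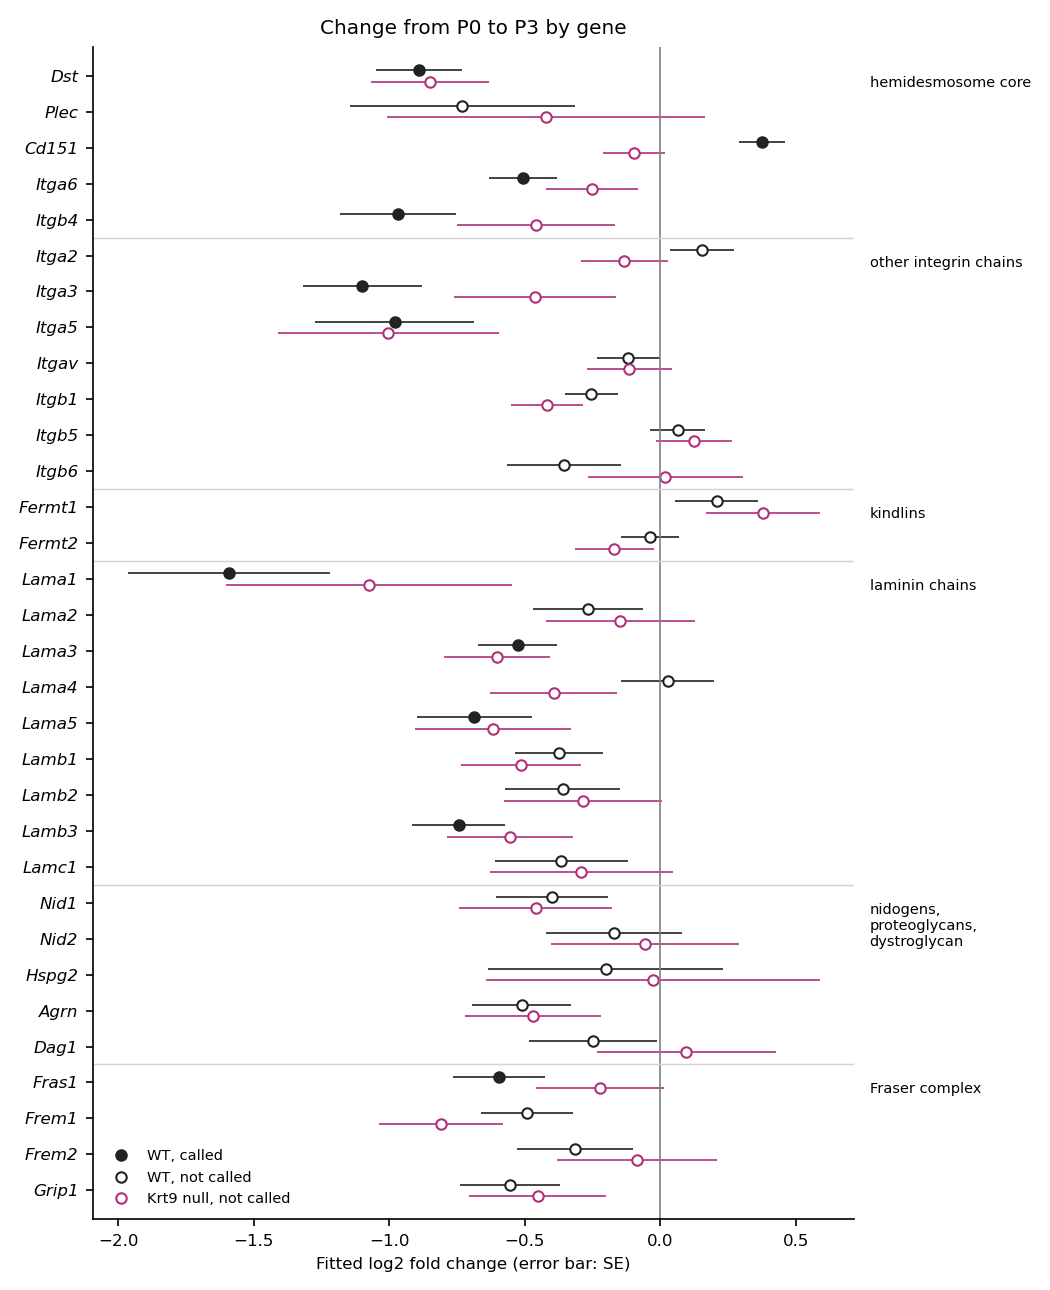
Fitted log2 change from P0 to P3 (x axis, bars are SE) for each member (y axis, by role) in WT (black) and Krt9 null paws (magenta); filled points are called. In WT 10 filled points lie below 0 and Cd151 lies above, and no Krt9 null point is filled.

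In Krt9 null paws no member was called between P0 and P3 by edgeR's quasi-likelihood test, where 0.768% of all genes were, with 2 and 3 libraries a group. At an unadjusted p under 0.05 there were 7 members, beside 15.9% of all genes. DESeq2 called 3 members (Dst, Itgb1 and Frem1) beside 5.04% of all genes, and limma voom 0 beside 0.754%, and without P3 Krt9 null replicate 2 edgeR called Dst. The median change was -0.34 (log2), 28 of 32 members were below 0 (50.8% of all genes), and 13 members were lower without overlap (13.8% of all genes). With the column run as a term, 7 members were called lower (2.87% of all genes): Dst, Itgb1, Itga5, Lama3, Lama5, Lamb1 and Lamb3. The smallest unadjusted p-values were those of Dst, Frem1 and Itgb1, in edgeR's quasi-likelihood fit (0.00142, 0.00312 and 0.00712). Endothelial markers fell in 2 of 10 cases in the same comparison (0.43% of all genes fell), with a median of -0.63 (log2). Of 6 macrophage markers 1 rose (0.338% of all genes rose), and no marker of the other cell types was called. The 15 epithelial markers had a median of 0.46, with 3 below 0, and the 10 skeletal muscle markers one of -0.85. The part of these cell types in the members' changes was not tested.

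Whether the change with day differed by genotype was tested as an interaction, and no member was called by edgeR (0% of all genes were called), DESeq2 or limma voom. At an unadjusted p under 0.05 there was 1 member, Cd151, beside 7.60% of all genes. Its interaction was -0.47 ± 0.14 (log2, adjusted p = 0.514). Itga3 (0.64 ± 0.38) and Lama4 (-0.42 ± 0.29) had the next smallest p-values. Lama4, a vascular laminin chain, was at 160, 200, 179 and 175 CPM in P0 WT, at 247 and 171 CPM in P0 Krt9 null, at 148, 207, 221, 190 and 146 CPM in P3 WT and at 131, 203 and 140 CPM in P3 Krt9 null paws. Its groups overlapped throughout. A call in WT and none in Krt9 null paws is therefore not shown to be a difference between the genotypes.

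Paws labelled Krt9 null did not differ from WT in any member on either day by edgeR's adjusted p, DESeq2 or limma voom. On P0, 0.00463% of all genes were called (the 1 gene Krt19), and 2 members had an unadjusted p under 0.05 (5.96% of all genes). Of these, Cd151 was 1.27-fold higher in its fitted value (log2 0.34 ± 0.11, adjusted p = 0.831), above WT without overlap (6.47% of all genes). Lama1 had a fitted difference of -1.12 ± 0.50 (adjusted p = 0.831), below WT without overlap (4.82% of all genes). Itga3 came next, at -0.51 ± 0.29 with overlap. The median over members was -0.21, with 26 of 32 below 0 (50.5% of all genes). With the column run as a term the median was -0.08, with 23 of 32 below 0.

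On P3, 0.00463% of all genes were called, again Krt19 only, and 1 member, Itgb1, had an unadjusted p under 0.05 (6.67% of all genes). Itgb1 was lower in all 3 Krt9 null libraries than in any of the 5 WT libraries, with a fitted difference of -0.24 ± 0.11 (adjusted p = 0.745). Itga2, the collagen-binding α2 chain gene, was at 48.9, 58.96, 47.2, 46.1 and 44.2 CPM in WT and at 39.7, 43.0 and 37.3 CPM in Krt9 null paws. These libraries did not overlap either, and the difference was -0.27 ± 0.13 (adjusted p = 0.756). Cd151 was the other member lower without overlap, so 3 members were (1.27% of all genes). Itgav was at 146, 153, 140, 130 and 131 CPM in WT and at 114, 135 and 101 CPM in Krt9 null paws, with overlap and a difference of -0.25 ± 0.13. The median over members was -0.13, and 24 of 32 were below 0 (52.2% of all genes). With the column run as a term the median on P3 was -0.04, with 19 of 32 below 0.

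The fitted genotype differences of the hemidesmosome genes on P0 were -0.13 ± 0.21 for Dst, -0.48 ± 0.55 for Plec, -0.22 ± 0.16 for Itga6 and -0.37 ± 0.28 for Itgb4, with overlap of the libraries in each. On P3 they were -0.09 ± 0.18 for Dst, -0.17 ± 0.48 for Plec, 0.04 ± 0.14 for Itga6 and 0.14 ± 0.24 for Itgb4. Lama3 was at -0.05 ± 0.16 and Lamb3 at 0.08 ± 0.19. None of the 15 epithelial markers was called on P3 either. Their median difference was 0.52 (log2), 9 of 15 had an unadjusted p under 0.05, and their sum ran from 7217 to 11329 CPM in Krt9 null paws. In run B the epithelial score on P3 was 8.37 and 8.26 in Krt9 null paws and 7.94 and 7.93 in WT. In run A it was 7.57 in Krt9 null replicate 2, within the WT range of 7.42 to 7.64. With the epithelial score as a covariate no member was called, and the members' median was 0.07. With the column run as a term no member was called for genotype on P3 or for the interaction, where 0.0324% of all genes were in each.

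**Figure D5:**
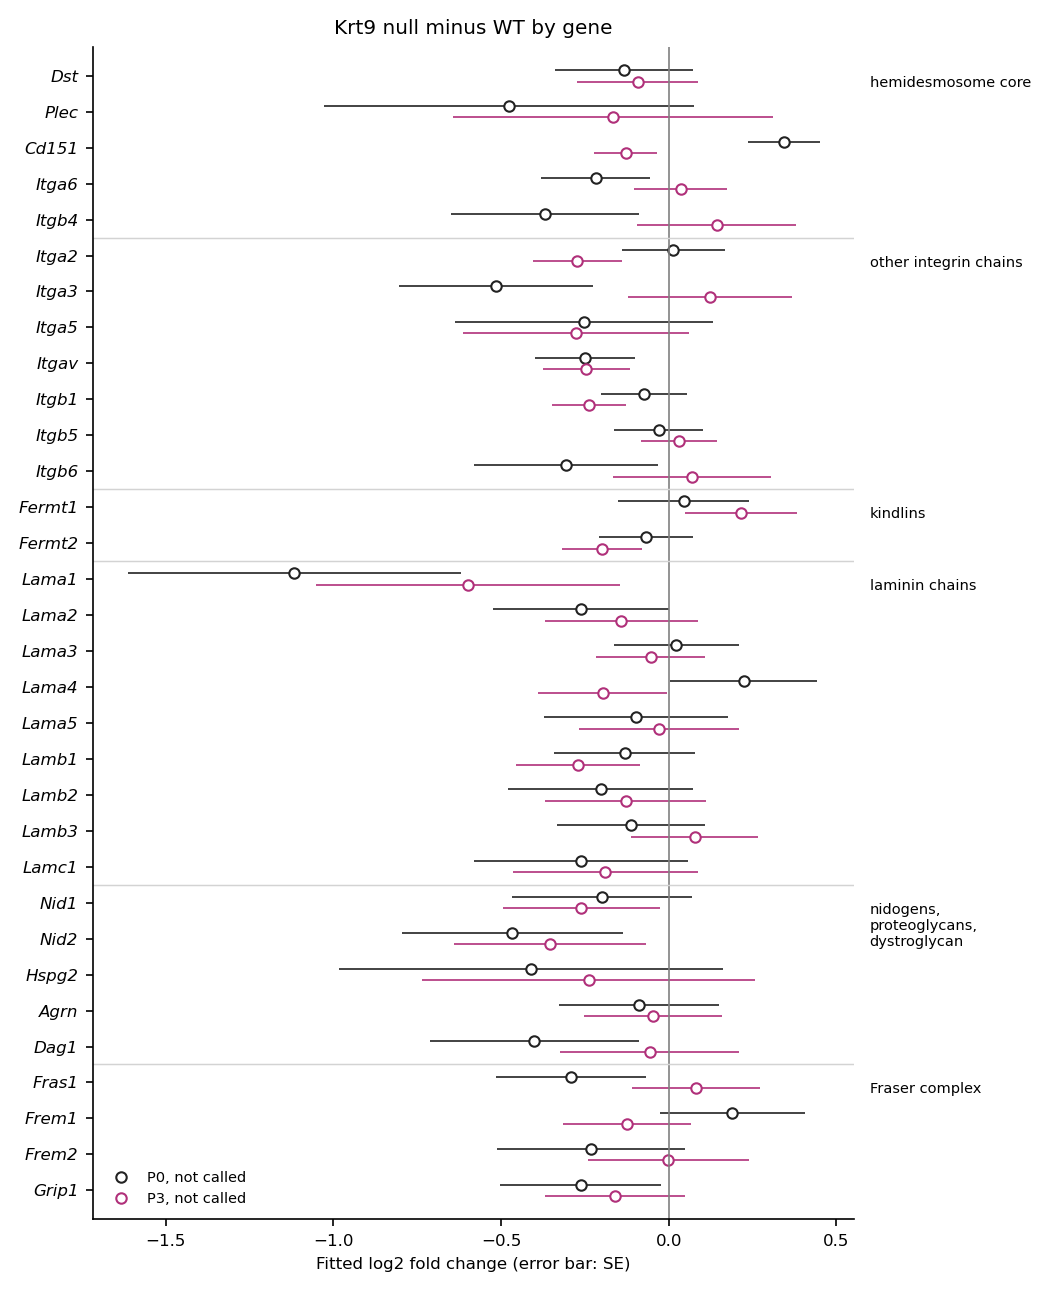
Fitted log2 difference of Krt9 null minus WT paws (x axis, bars are SE) for each member (y axis, by role) on P0 (black) and P3 (magenta). All points are open because no member was called; Cd151 on P0 (0.34) and Lama1 on P0 (-1.12) lie farthest from 0 for their error.

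Further genes of the same pathways, taken from lists written with the earlier results of these data known, were read from the same fit. The counts below stand beside 8.49% of all genes that rose and 8.07% that fell between P0 and P3 in WT. In that comparison, 1 of 4 further laminin and netrin genes rose (Ntn4, log2 0.55) and none fell. Of 16 further integrin chains, 2 rose, the leukocyte chains Itgal (1.68) and Itgb2 (1.11), and 1 fell, Itga8 (-0.41). Of 22 focal adhesion and adaptor genes, the actin regulator Zyx fell (-0.55) and Rsu1 rose (0.34). Of 18 further basement membrane genes, 4 fell and none rose, with the smallest adjusted p for Lad1 (-0.91), Smoc2 (-0.48) and Tinagl1 (-0.98). Lad1 encodes ladinin, a protein of the hemidesmosome region. The other plakin genes gave 1 of 4 lower, Evpl (-0.55), a gene of the cornified envelope. In the dystroglycan complex and its glycosylation, 3 of 16 genes fell, Sgcb (-0.31) and Sgca (-0.71) among them, and Pomt1 rose (0.75). Leaving out each library in turn kept the calls of Itgal, Lad1, Smoc2 and Pomt1. In run B alone, with its 1 P0 WT library, Lad1 was at -0.20 and Pomt1 at 0.29 and neither was called. The call of Tinagl1 was lost without P0 WT replicate 3, and that of Evpl without P0 WT replicate 1, 2 or 3. Ntn4, Itga8, Itgb2, Zyx, Rsu1, Sgcb and Sgca each lost theirs without any of 6 to 10 libraries. No gene of these lists was called for day in Krt9 null paws, for genotype on either day or for the interaction by edgeR.

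Of the 32 members, 23 had an entry in the promoter table, with 33 windows. A GC box (GGGCGG, both strands) was present in 21 of the 33 windows (63.6%) and in 35.7% of all 32851 windows of the same length. The median GC content was 60.3% over the members' windows and 52.7% over all windows. An AP-1 site (TGANTCA) was in 1 window, the second of Itga3 (3.03%, and 7.81% of all windows). A TATA box (TATAAA, both strands) was in 1 window, the third of Grip1 (3.03%, and 13.6% of all), and CACGTG in none (7.15% of all). Of the first windows printed above, those of Cd151, which rose, and of Itga3 and Dst, which fell, hold a GC box, and that of Lamb3, which fell, does not.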

How the data were processed

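The authors deposited 1 table of raw read counts per gene for 14 libraries, without normalization, and every value is a whole number. Per the submitters' processing notes, the build was GRCm39 and the tools included the aligner STAR (2.7.10a), featureCounts, limma and edgeR; no strand setting or filter is named there. Symbols, exon lengths and transcript GC content came from a GRCm38 annotation, which named 52073 of 56691 IDs (the others hold 0.623% of the counts), and promoter windows from RefSeq (GRCm38.p6).

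The members and lists were chosen with earlier results of these data known. Counts were filtered by filterByExpr, normalised by TMM and tested in R 4.3.3 with edgeR 4.0.16 (robust quasi-likelihood, 4 groups plus labelled sex, 9 residual degrees of freedom, all 14 libraries). P-values were adjusted by Benjamini-Hochberg over 21619 genes, with calls under 0.05. The script was tested on simulated data. Alternatives used DESeq2 1.42.0 and limma 3.58.1. Named with values in every library were the hemidesmosome core, Lama3 and Lamb3, the 6 smallest adjusted p among members called in a contrast and, where none was, the 3 smallest unadjusted p; of each further list, up to 3 called genes were named. One gene of the laminin and netrin list is not reported here. Itga5 and Hspg2 were added after their values were seen. Library totals limit counting error only. The 20 pairs of libraries within a group differed by far more than sampling noise (chi-square per degree of freedom 13.9 to 198).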

Additional observations from a re-analysis of the deposited data

Results flagged for a closer look

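Itga6 in P0 WT replicate 4 was at 195.7 CPM, far from the other 3 libraries of its group, which were at 290.0 to 308.1 CPM. The gap to the nearest library was 0.839 of the group's whole range. This was the only such value among 64 groups of 4 or 5 libraries checked (each member in P0 WT and P3 WT). Chance gives about 1 in 20, so 1 among 64 is not more than chance gives. The groups share libraries and are not independent. The same library is in column run B and has sex markers that do not match its label. With run as a term, Itga6 was called lower in run B (log2 -0.26 ± 0.07, SE, adjusted p = 0.0137 by edgeR's quasi-likelihood test). The part of the run and of the sex mismatch in the low value was not tested. Without this library the WT change of Itga6 from P0 to P3 was -0.62 (log2) rather than -0.51.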

How the results depend on the processing

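Over 29 alternatives for the change with day in WT paws, Dst, Itgb4, Itga3 and Cd151 were called in all 29, Lama1 and Lamb3 in 28, Itga6 in 25, Lama3 in 24, Fras1 in 21, and Itga5 and Lama5 in 20. Of the 21 members not called, 12 were called under some alternative and 9 under none. The count of 11 members was 7 with library-size scaling only (15.9% of all genes), 20 with the column run as a term (25.8%) and 19 in run B alone (17.1%), and 5 to 14 when each library was left out in turn. In Krt9 null paws the count of 0 was 5 without a filter (4.6% of all genes), 3 by DESeq2 (5.04%), 7 with the run as a term (4.95%), 18 in run B alone (22.6%), and 0 to 1 when leaving out a library. Run B alone called 2 members for genotype on P0 (1.44% of all genes), 9 for genotype on P3 (8.77%) and 2 for the interaction (2.64%); it has 1 WT and 1 Krt9 null library on P0 and 1 residual degree of freedom. There Lama3 and Lama5 on P3 turned from -0.05 and -0.03 to 0.29 and 0.24. Leaving out a library gave 0 to 0 for both genotype comparisons and the interaction. The causes of these shifts were not tested. Library-size scaling moved the median of all genes by 0.11 (genotype on P0), 0.11 (day in WT) and -0.16 (interaction). With litter within a day as a replicate block (correlation 0.555), 10 members were called for day in WT (13.8% of all genes). Itga5 and Fras1 were lost and Frem1 gained, and 0 members were called in every other comparison (at most 0.611% of all genes). The litters with more than 1 library on a day lie wholly in run A, so litter and run cannot be told apart in that correlation. Residual correlations of litter-mates within a day were -0.18 and -0.05 in 2 pairs, too few to tell whether litter-mates deviate together. The fit also makes the residuals of the 2 P0 Krt9 null libraries mirror each other (correlation -1). P0 Krt9 null replicate 2, of another litter, therefore had 0.18 with the same WT library, and the value of -0.18 cannot measure likeness of litter-mates. Replicate numbers here follow accession order and pair nothing. The fit to only the groups compared could not be made for the interaction.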
